A study of Mus musculus with 36 samples.

Results

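*Meox1* and *Meox2*, the mouse mesenchyme homeobox genes, are 2 of the 30125 genes listed in the 3 expression tables of the study. They were chosen by their Ensembl identifiers, ENSMUSG00000001493 and ENSMUSG00000036144, and both had a value in all 36 libraries. The libraries were bulk RNA-seq of primary nephron progenitor cells (NPCs) isolated from embryonic mouse kidneys and kept in an expansion medium, after cells bound by antibodies to CD105, CD140, Ter119 and CD326 had been depleted from the suspension, so each sample is a culture of pooled kidneys rather than an animal. The cultures differed in the dose of CHIR (CHIR99021, an inhibitor of the kinase GSK3β that stabilizes β-catenin): 0 µM (no CHIR), 1.25 µM (low CHIR) or 5 µM (high CHIR). All cells had first been plated in low CHIR.

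The first table held wild-type NPCs in no, low and high CHIR, with 3 libraries each. The second held 8 groups of 2 libraries. In 4 of these the NPCs were homozygous for a conditional β-catenin allele (B-catenin c/c) and had received Cre mRNA (Cre-pos) or none (Cre-neg, no Cre), in low or high CHIR. In the other 4, NPCs carrying Cas9-eGFP had received sgRNAs against *Ctnnb1*, the gene of β-catenin, or a control sgRNA against GFP, in low or high CHIR. The third table held Cas9-eGFP NPCs given sgRNAs against *Tcf7l1*, *Tcf7l2*, *Tcf7* and *Lef1* together (QKO) or the GFP sgRNA, with 3 libraries per group except QKO in low CHIR, which had 2. Transfected cells also received mCherry mRNA as a reporter, and the study sequenced reporter-positive knockout and control cells of the β-catenin experiments. The wild-type cultures are not described as transfected. Knockout cells were sorted populations with mixed edits and no clonal selection, and the knockout period was longer in the QKO experiment. The sources do not say whether replicates came from separate preparations, so p-values measure only the spread between these libraries, which may be technical.

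Meox proteins are homeodomain transcription factors. They are best known from the somites, where *Meox1* and *Meox2* act together in the formation of the axial skeleton and muscle, and *Meox2* also acts in limb muscle and in vessel walls. In the kidney both transcripts mark uncommitted NPCs, the mesenchymal cells that either self-renew or, on Wnt signaling, condense and become epithelial nephrons. In canonical Wnt signaling, β-catenin escapes degradation when GSK3β is inhibited, enters the nucleus and acts on target genes through DNA-binding partners of the Tcf/Lef family.

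*Meox1* lies on chromosome 11 (chr11:101877510-101894374, minus strand, GRCm38) and *Meox2* on chromosome 12 (chr12:37108540-37179534, plus strand). Each has 1 annotated transcript of 3 exons in GENCODE vM21, of 2228 bases for *Meox1* and 2360 bases for *Meox2*. The longest run of bases shared by the whole transcripts was 12 bases, against reads of 150 bases, and only uniquely aligned reads were counted. Other annotated genes overlap both loci. *Gm11551*, antisense to *Meox1*, was not analysed here. *Gm48617*, an intronic transcript on the strand of *Meox2*, was listed at 0 to 81.1 normalized counts per library.

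The 250 bases upstream of the annotated *Meox2* start are shown because the gene moved with the dose and with loss of Tcf/Lef factors (chr12:37108290-37108539, plus strand, GRCm38, RefSeq; 1 of the 2 members matched the promoter table).
Meox2 upstream: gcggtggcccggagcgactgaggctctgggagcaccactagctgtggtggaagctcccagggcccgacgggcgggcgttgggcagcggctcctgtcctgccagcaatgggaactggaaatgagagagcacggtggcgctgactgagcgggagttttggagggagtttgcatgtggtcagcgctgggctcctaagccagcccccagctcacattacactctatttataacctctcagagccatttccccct
Neither of 2 spellings of the Tcf/Lef core motif, CTTTGAA and CTTTGAT, was found in the *Meox2* promoter window on either strand (the 2 spellings cannot overlap at the same position). The search and the shares below cover whole windows, and the 250 bases shown are the first of the *Meox2* window. Among the 32851 promoter windows of the RefSeq table, 5.14% held CTTTGAA and 3.73% held CTTTGAT.

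Library depth ranged from 13089780 to 76071568 reads on genes. The deepest library was wild-type no CHIR replicate 1, and no other library exceeded 27838106 reads. Another library stood apart in its expression. In the high-CHIR wild-type replicate 3, *Lhx1*, a gene of the forming nephron, was at 104 normalized counts against 5949 and 6706 in replicates 1 and 2, and neither *Meox* gene had a read. In the QKO table, GFP sgRNA replicate 1 in high CHIR held 2474 normalized counts of *Lyz2*, a macrophage gene, against at most 15.9 in the other 10 libraries. All 6 NPC markers were detected in every group except *Osr1* in wild-type high CHIR, at 0 in all 3 libraries. The targeted genes checked the knockout labels only in part, since edited alleles can still be transcribed. *Ctnnb1* was at 1630 and 1270 normalized counts with Ctnnb1 sgRNA in high CHIR against 2632 and 2701 with GFP sgRNA (log2 difference −0.89 ± 0.23 SE, adjusted p = 0.0429), whereas Cre in high CHIR left its whole-gene count at 2254 and 2583 against 2423 and 2207 (0.06 ± 0.23, adjusted p = 0.917). Of the QKO targets in high CHIR, *Tcf7* fell (−1.64 ± 0.31, adjusted p = 0.0175), and *Lef1* (−2.12, adjusted p = 0.131), *Tcf7l2* (−0.35, adjusted p = 0.513) and *Tcf7l1* (0.15, adjusted p = 0.778) did not pass the test. The fit behind these values did not pair same-numbered libraries.

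Both *Meox* transcripts were nearly absent from wild-type NPCs in high CHIR. *Meox2*, the more abundant, was at 1180, 1494 and 2163 normalized counts in low CHIR (1612 ± 502, SD, n = 3) and at 4.48, 20.9 and 0 in high CHIR (8.47 ± 11). *Meox1* was at 39.4, 71.2 and 52.7 in low CHIR (54.4 ± 16) and at 1.12, 1.40 and 0 in high CHIR, which stood for 1, 1 and 0 reads. No high-CHIR library reached the lowest low-CHIR library for either gene, as in 16% of all genes tested. On the scale of log2(normalized count + 1), *Meox2* fell by 8.31 ± 0.83 (SE, 95% CI −10.16 to −6.45, adjusted p = 0.000203) and *Meox1* fell by 4.97 ± 0.56 (−6.22 to −3.72, adjusted p = 0.000427). Both members were thus called lower, where 5.05% of the 17411 genes tested were called lower (adjusted p under 0.05 and a log2 difference of at least 0.5). Of all these genes *Meox2* had the 2nd lowest and *Meox1* the 28th lowest log2 difference.

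The added constant shrinks the *Meox1* difference most, because few reads were left. From pooled reads, 149 against 2, *Meox1* was 75.3 times as high in low as in high CHIR (95% counting interval 20.5 to 628), and *Meox2*, with 4278 against 19 reads, 228 times (146 to 379). These exact conditional intervals cover counting error only. Without the high-CHIR replicate 3 the log2 differences were −7.16 for *Meox2* (adjusted p = 1.81e-05) and −4.58 for *Meox1* (adjusted p = 0.000553). In bulk samples, fewer cells of a type and less RNA per cell cannot be told apart. The summed stromal markers moved in the same direction, from 8561 to 10024 normalized counts in low CHIR to 315 to 1505 in high CHIR, mostly through *Tcf21*. Of 6 stromal markers, 6 were detected in low CHIR and 5 in high CHIR. The summed blood markers, mostly *Lyz2*, went from 641 to 794 in low CHIR to 185 to 281, and the ureteric markers from 812 to 1093 up to 2030 to 6523. *Des*, a skeletal muscle marker, went from 8862 to 15427 in low CHIR to 329 to 529 in high CHIR. The part of all these markers in the *Meox* differences was not tested.

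**Figure D1:**
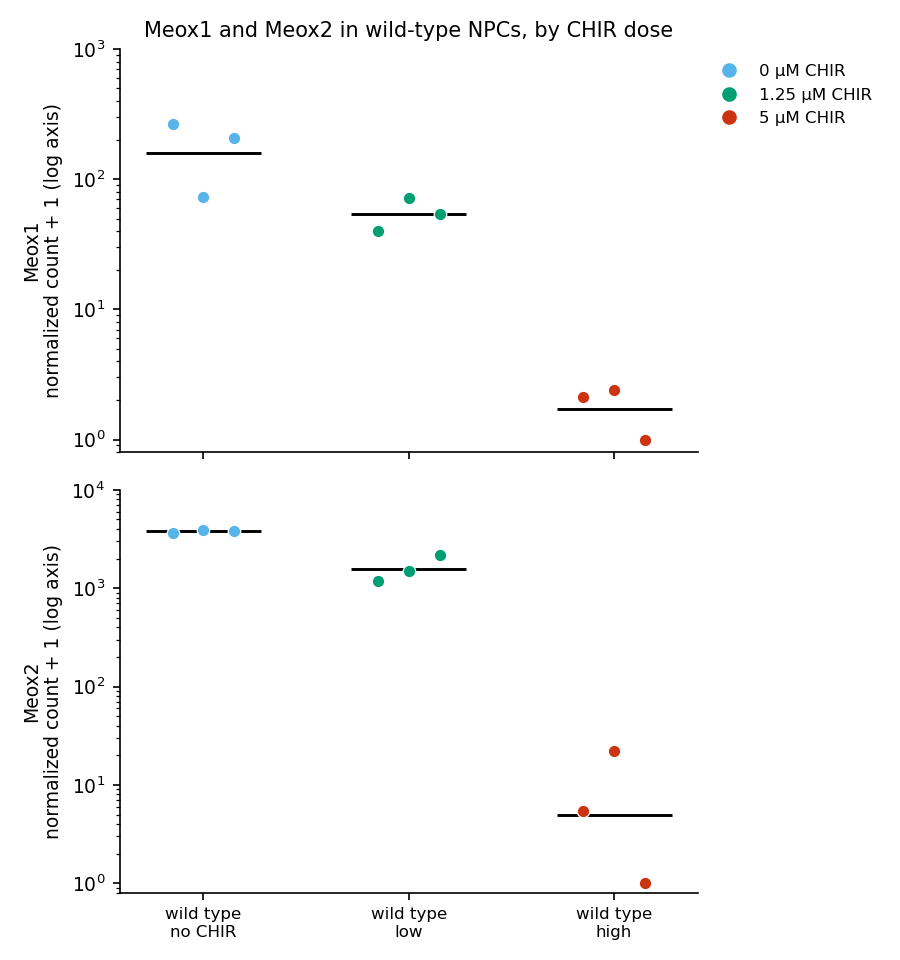
Normalized counts of *Meox1* and *Meox2* in the 9 wild-type libraries (log axis, value + 1) by CHIR dose, each point a library and each bar the mean on the log scale. Both genes are highest in no CHIR and near 0 in high CHIR, where *Meox2* lies between 0 and 20.9.

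Removal of CHIR went with higher values of both genes, but neither passed the main test. That test shares 1 estimate of the spread with the high-CHIR libraries, where reads were few. In a limma fit of no and low CHIR alone *Meox2* passed (adjusted p = 0.0114), and *Meox1* passed with DESeq2 (adjusted p = 0.0122). For each gene the other 7 alternative fits did not pass. The study names both genes among determinants of the self-renewal state that were higher without CHIR, from its own DESeq2 comparison with low CHIR. *Meox2* was at 3665, 3909 and 3821 normalized counts in no CHIR (3799 ± 124), above each low-CHIR library. The log2 difference from low CHIR was 1.28 ± 0.83 (95% CI −0.57 to 3.13, adjusted p = 0.400). *Meox1* was at 266, 71.7 and 207 (181 ± 99.4), with replicate 2 just above the highest low-CHIR library at 71.2 (1.56 ± 0.56, 95% CI 0.31 to 2.81, adjusted p = 0.137). Of all genes tested, 2.37% were called higher in no than in low CHIR, and in 15.9% every no-CHIR library was above every low-CHIR library. Between the extremes of the dose, *Meox2* fell by 9.59 (adjusted p = 4.55e-05) and *Meox1* fell by 6.53 (adjusted p = 4.28e-05) from no to high CHIR, where 12.0% of genes were called lower.

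Cre removal of β-catenin left both *Meox* transcripts abundant in high CHIR. *Meox2* was at 122 and 113 normalized counts in Cre-neg NPCs in high CHIR (117 ± 5.96, n = 2) and at 4329 and 3831 in Cre-pos NPCs (4080 ± 352). *Meox1* was at 0.921 and 1.04 in the Cre-neg libraries, which is 1 read in each, and at 135 and 101 in the Cre-pos libraries (118 ± 24.4). The Cre-pos libraries were above the Cre-neg libraries for both genes, as in 24.2% of all genes. The log2 difference was 5.11 ± 0.26 for *Meox2* (95% CI 4.54 to 5.67, adjusted p = 1.30e-07) and 5.90 ± 0.67 for *Meox1* (4.46 to 7.33, adjusted p = 8.01e-05). Both were called higher, against 5.90% of the 16780 genes tested, and ranked 41st (*Meox2*) and 15th (*Meox1*) from the highest difference. From 217 against 2 pooled reads, *Meox1* was 123 times as high with Cre (33.5 to 1019).

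In low CHIR, neither transcript passed the test for Cre. *Meox2* was at 3017 and 3256 without Cre and 4680 and 4917 with Cre (log2 difference 0.61 ± 0.26, 95% CI 0.05 to 1.18, adjusted p = 0.417). *Meox1* was at 30.0 and 80.6 without Cre and 196 and 242 with Cre (2.12 ± 0.67, 0.69 to 3.55, adjusted p = 0.242). The Cre-pos libraries were the higher ones for both genes, as in 16.1% of all genes, but neither difference passed the test, and 0.179% of genes were called higher.

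The dose response of *Meox2* was smaller after Cre. Without Cre, *Meox2* fell by 4.73 from low to high CHIR (95% CI −5.29 to −4.17, adjusted p = 3.48e-07) and *Meox1* fell by 4.67 (−6.10 to −3.23, adjusted p = 0.000545), where 5.24% of genes were called lower. With Cre, *Meox2* differed by −0.24 (−0.80 to 0.33, adjusted p = 1.00) and *Meox1* by −0.89 (−2.33 to 0.54, adjusted p = 1.00), where 0.0119% of genes were called lower. The difference between these responses was 4.49 ± 0.37 for *Meox2* (3.70 to 5.29, adjusted p = 0.000128), where 0.745% of genes had a difference called positive. For *Meox1* it was 3.78 ± 0.94 (1.75 to 5.80) and did not pass the adjustment over all genes (adjusted p = 0.0926). Cre-pos NPCs in high CHIR held the transcripts at 0.38 (*Meox2*, −0.19 to 0.94, adjusted p = 0.672) and 1.23 log2 units (*Meox1*, −0.21 to 2.66, adjusted p = 0.543) above Cre-neg NPCs in low CHIR, intervals that include 0, and 0.62% of genes were called higher in that comparison.

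Cas9 removal of β-catenin gave the same direction for *Meox2*, with a less uniform *Meox1*. In high CHIR, *Meox2* was at 79.4 and 162 normalized counts with GFP sgRNA (121 ± 58.2) and at 2215 and 2792 with Ctnnb1 sgRNA (2503 ± 408). *Meox2* rose by 4.44 ± 0.26 on the log2 scale (3.88 to 5.01, adjusted p = 8.30e-07), the 38th highest difference, where 3.44% of genes were called higher. *Meox1* was at 12.0 and 9.57 with GFP sgRNA and at 147 and 35.2 with Ctnnb1 sgRNA. All Ctnnb1 sgRNA libraries were above the controls for both genes, as in 30.1% of all genes, but the second lay much closer to them for *Meox1* than the first. *Meox1* rose by 2.64 ± 0.67 (1.21 to 4.08, adjusted p = 0.0375). That call did not hold without Ctnnb1 sgRNA replicate 1 (1.63, adjusted p = 0.269) or without GFP sgRNA replicate 1 (2.79, adjusted p = 0.121) or 2 (2.50, adjusted p = 0.236), nor in a fit of the compared groups alone (adjusted p = 0.0507).

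In low CHIR, *Meox2* was at 2553 and 3390 with GFP sgRNA and 4180 and 4769 with Ctnnb1 sgRNA (0.60 ± 0.26, 0.04 to 1.16, adjusted p = 1.00). *Meox1* was at 79.5 and 35.7 with GFP sgRNA and 291 and 119 with Ctnnb1 sgRNA (1.79, 0.35 to 3.22, adjusted p = 1.00). As with Cre, the targeted libraries were the higher ones without passing the test, as in 16.1% of all genes, and 0.0358% of genes were called higher. With GFP sgRNA, *Meox2* fell by 4.68 from low to high CHIR (−5.25 to −4.12, adjusted p = 4.64e-07), where 4.53% of genes were called lower, and *Meox1* differed by −2.21 (−3.65 to −0.78, adjusted p = 0.0634). With Ctnnb1 sgRNA the differences were −0.84 for *Meox2* (−1.41 to −0.28, adjusted p = 0.263) and −1.35 for *Meox1* (−2.79 to 0.08, adjusted p = 0.560), where 0.137% of genes were called lower. The responses differed by 3.84 ± 0.37 for *Meox2* (3.04 to 4.64, adjusted p = 0.000325), where 0.471% of genes had a difference called positive, and by 0.86 ± 0.94 for *Meox1* (−1.17 to 2.89, adjusted p = 0.914). Ctnnb1 sgRNA in high CHIR differed from GFP sgRNA in low CHIR by −0.24 for *Meox2* (−0.81 to 0.32, adjusted p = 0.845) and by 0.43 for *Meox1* (adjusted p = 0.907), with overlapping libraries for both genes, where 0.638% of genes were called in either direction.

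**Figure D2:**
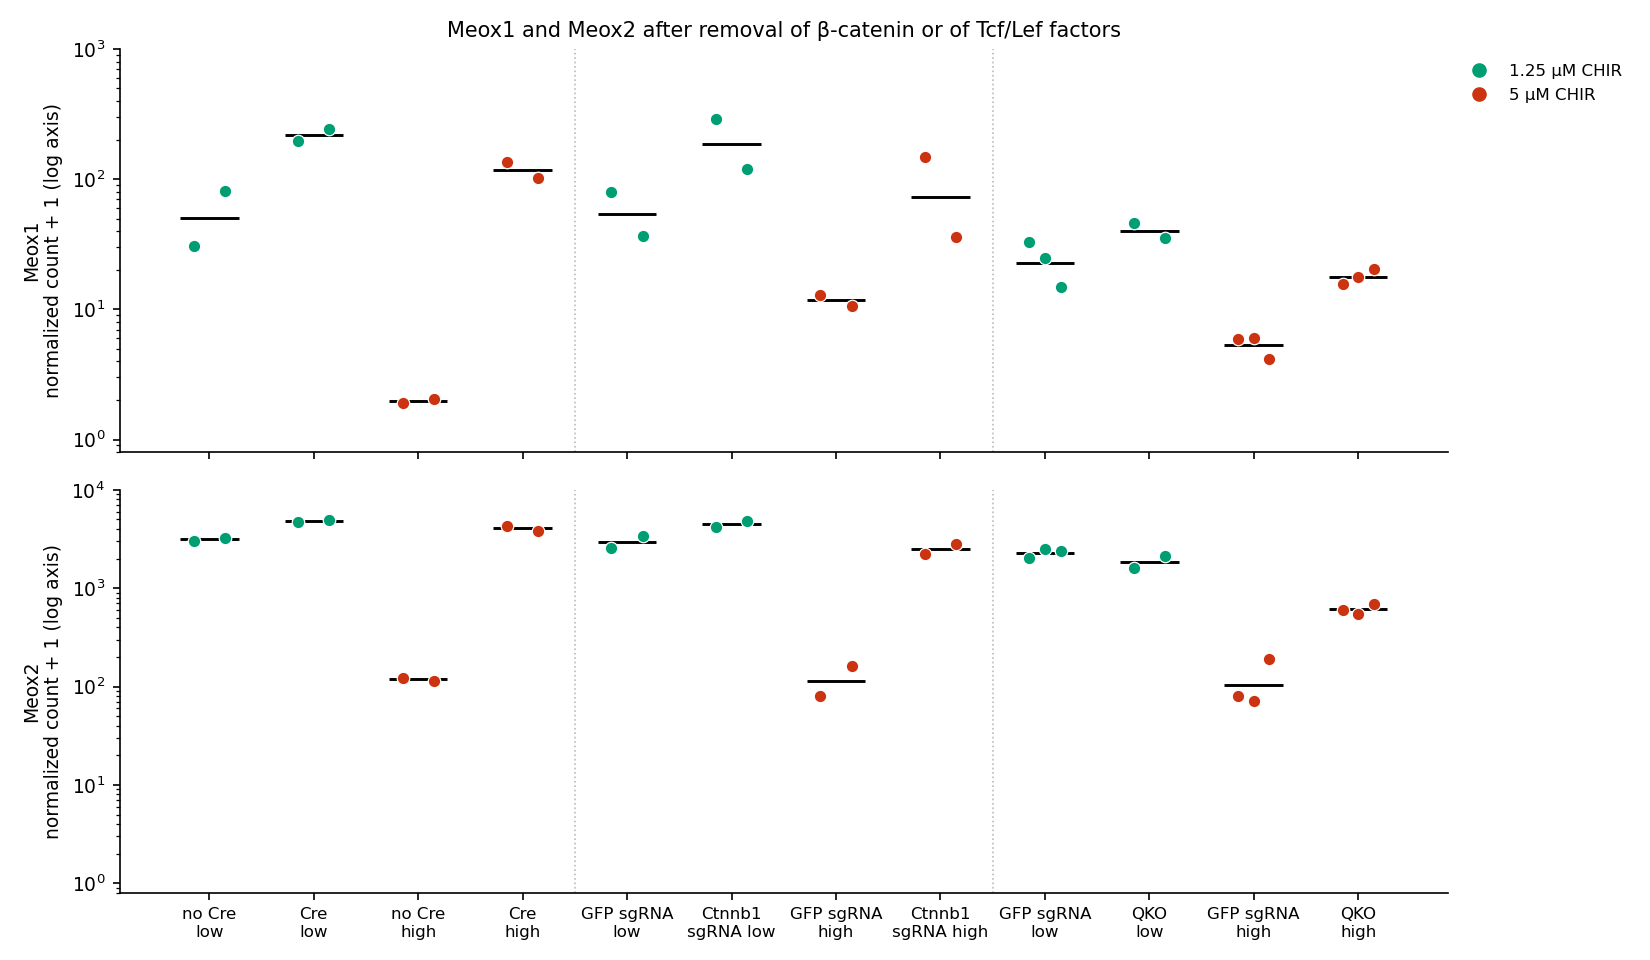
Normalized counts (log axis, value + 1) of *Meox1* and *Meox2* in the 27 knockout and control libraries, by group, each point a library and each bar the mean on the log scale. In high CHIR the control groups are the lowest for both genes, with *Meox2* between 70.8 and 191 in 7 control libraries.

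The removal methods were compared directly. The effect of removal in high CHIR differed between the methods by 3.25 log2 units for *Meox1* (1.22 to 5.28) and 0.66 for *Meox2* (−0.13 to 1.46). Neither passed the adjustment over all genes (adjusted p = 1.00 for both). limma called 0.0% of genes in this comparison, while 310 genes were above and 236 below 0 at an unadjusted p under 0.05. edgeR and DESeq2 had only 1 Cre-pos library in high CHIR, so their counts are not given. The *Meox1* difference involved both arms, since the GFP sgRNA controls in high CHIR held about 10 normalized counts and the Cre-neg controls about 1.

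*Emcn*, an endothelial marker, moved with β-catenin removal. It was at 35.9 and 43.6 normalized counts in Cre-neg NPCs in high CHIR and 911 and 523 in Cre-pos NPCs, and at 121 and 55.5 with GFP sgRNA against 1041 and 617 with Ctnnb1 sgRNA. In low CHIR it was at 165 and 147 in Cre-neg and 1174 and 748 in Cre-pos NPCs. The other 5 endothelial markers summed to 7.77 to 44.9 normalized counts in every library of this table, and *Cdh5*, *Kdr* and *Tie1* were at 0 in Cre-neg high CHIR. The summed stromal markers were 2538 to 2588 in Cre-neg and 3447 to 3892 in Cre-pos high CHIR, and 3088 to 6552 with GFP sgRNA and 5517 to 7414 with Ctnnb1 sgRNA. In the skeletal muscle list, a lineage in which both *Meox* genes act in the embryo, *Des* carried the sum (1494 to 9848). *Myod1*, *Myf5* and *Pax7* were at 0 or not listed in this table. In high CHIR *Des* was at 2708 and 1494 in Cre-neg and 4731 and 5531 in Cre-pos NPCs. With GFP sgRNA it was at 2379 and 2831, and with Ctnnb1 sgRNA at 4746 and 7259. The part of these genes in the *Meox* differences was not tested.

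In high CHIR both genes were also higher in QKO NPCs, at levels well under those of the low-CHIR controls of the same table for *Meox2*. *Meox2* was at 79.9, 70.8 and 191 normalized counts with GFP sgRNA (114 ± 67.1, n = 3) and at 606, 541 and 692 in QKO NPCs (613 ± 75.8). *Meox1* was at 4.94, 5.06 and 3.19 with GFP sgRNA (4.40 ± 1.05) and at 14.8, 16.6 and 19.3 in QKO NPCs (16.9 ± 2.27). All QKO libraries were above all controls for both genes, as in 11.1% of all genes. *Meox2* rose by 2.56 ± 0.30 (1.90 to 3.22, adjusted p = 0.00126), the 76th highest difference of 15878 genes, and *Meox1* rose by 1.74 ± 0.39 (0.89 to 2.59, adjusted p = 0.0381). Genes called higher made up 2.05% of those tested, and 5.30% with the replicate number as a block.

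The *Meox1* call in QKO was close to the threshold and rested on 53 reads against 14, a ratio of 3.78 (2.07 to 7.37). With the replicate block the adjusted p was 0.0147. Leaving out any of the 6 libraries, in limma fits without the block, gave log2 differences of 1.57 to 1.83 and adjusted p-values of 0.0659 to 0.135. edgeR (adjusted p = 0.123) and DESeq2 (adjusted p = 0.119) on reads did not call it either. Both ran without GFP sgRNA replicate 2 in high CHIR, so they also lacked 1 of the 6 libraries. In GFP sgRNA replicate 1 in high CHIR, the blood markers summed to 2647 normalized counts, mostly *Lyz2*. Without that library *Meox2* still rose, by 2.38 (adjusted p = 0.00507). The stromal markers summed to 657 to 1380 in the controls and 1574 to 3350 in QKO NPCs in high CHIR, and their part was not tested.

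In low CHIR no effect of the QKO was detected. *Meox2* was at 2030, 2485 and 2385 with GFP sgRNA and at 1621 and 2141 in QKO NPCs, ranges that overlap (−0.30, −1.04 to 0.44, adjusted p = 0.909). *Meox1* was at 31.8, 23.7 and 13.8 with GFP sgRNA and 45.3 and 34.2 in QKO NPCs, which did not overlap, as in 10.2% of all genes (0.82, −0.13 to 1.77, adjusted p = 0.904). In this comparison 0.0063% of genes were called, and 0.101% with the block.

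QKO NPCs still lost most of their *Meox2* in high CHIR. With GFP sgRNA, *Meox2* fell by 4.47 from low to high CHIR (−5.12 to −3.81, adjusted p = 3.29e-06) and *Meox1* fell by 2.10 (−2.95 to −1.26, adjusted p = 0.00319), where 7.96% of genes were called lower and 11.6% with the block. In QKO NPCs *Meox2* fell by 1.61 (−2.35 to −0.87, adjusted p = 0.0298), where 1.12% of genes were called lower and 2.81% with the block, a call lost without any of the 5 libraries (−1.81 to −1.41, adjusted p = 0.0659 to 0.211). *Meox1* differed by −1.18 (−2.13 to −0.23, adjusted p = 0.213). The responses differed by 2.86 ± 0.45 for *Meox2* (1.87 to 3.85, adjusted p = 0.0424, and 0.00421 with the block), where 0.107% of genes had a difference called positive and 0.617% with the block. This call held without GFP sgRNA replicate 3 in either dose and was lost without any of the other 9 libraries (2.59 to 3.30 over all 11). The fits with a library left out did not use the block. For *Meox1* the responses differed by 0.92 (−0.35 to 2.20, adjusted p = 1.00). *Meox2* in QKO NPCs in high CHIR was below the GFP sgRNA controls in low CHIR, with a log2 difference of −1.91 (−2.57 to −1.25, adjusted p = 0.00288), where 2.78% of genes were called lower and 7.19% with the block. The tables were normalized separately, so the β-catenin and QKO effects were not tested against each other.

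**Figure D3:**
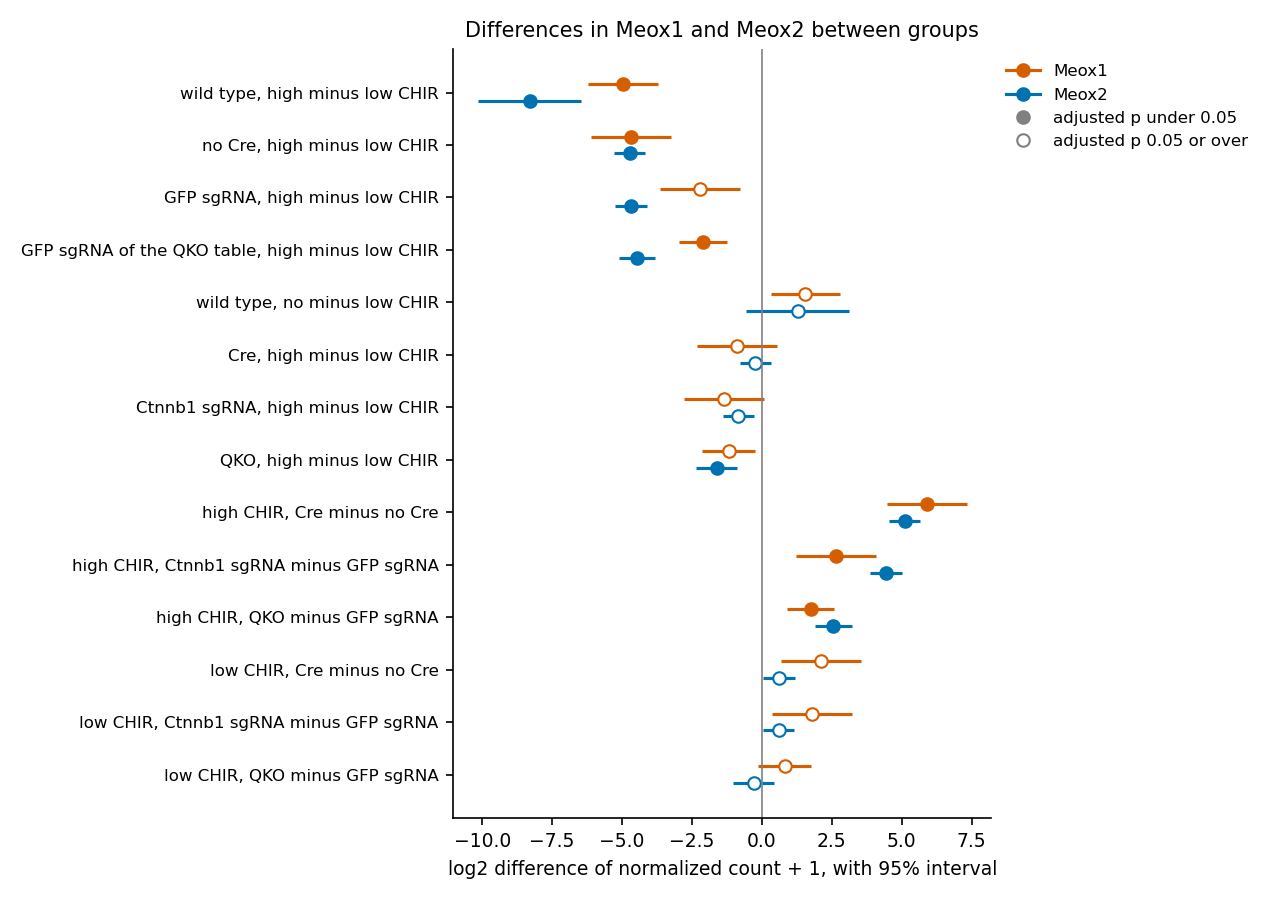
Log2 differences of *Meox1* and *Meox2* with 95% confidence intervals for the comparisons of the 3 tables. Filled points have an adjusted p under 0.05. *Meox2* passes in all 4 control dose comparisons of high against low CHIR and in all 3 knockout comparisons in high CHIR.

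The groups of each table were ordered by level. In wild-type NPCs both genes ran no, low, high CHIR with no overlap between neighbours. In the β-catenin table, *Meox2* formed 3 separate levels: Cre-pos low, Ctnnb1 sgRNA low and Cre-pos high CHIR (4798 to 4080 normalized counts on average), then Cre-neg low, GFP sgRNA low and Ctnnb1 sgRNA high CHIR (3137 to 2503), then GFP sgRNA high and Cre-neg high CHIR (121 and 117). Neighbours within each level overlapped. *Meox1* had a continuous upper range, from Cre-pos low CHIR (219 ± 32.8) to Cre-neg low CHIR (55.3 ± 35.8), in which all neighbouring groups overlapped, and then GFP sgRNA high CHIR (10.8 ± 1.71) and Cre-neg high CHIR (1 read per library) apart from the rest. In the QKO table *Meox2* ran GFP sgRNA low and QKO low CHIR, which overlapped, then QKO high and GFP sgRNA high CHIR, each apart. *Meox1* ran QKO low, GFP sgRNA low, QKO high and GFP sgRNA high CHIR, and GFP sgRNA low overlapped with QKO high CHIR.

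Per kilobase of transcript, *Meox2* was the higher paralog in 35 of the 36 libraries, and the other had no read of either. In wild-type NPCs the level was 1610 normalized counts per kilobase for *Meox2* and 81.4 for *Meox1* in no CHIR, a ratio of 19.8, and 683 and 24.4 in low CHIR, a ratio of 28. The control low-CHIR cultures of the other tables had ratios of 53.6 (Cre-neg, 38.1 and 95 in the 2 libraries), 48.7 (GFP sgRNA of the β-catenin table, 30.3 and 89.6) and 94.0 (GFP sgRNA of the QKO table, 60.3 to 163), so leaving out 1 library moved both ratios of the β-catenin table by over 1.5 times. *Meox1* was thus the minor transcript throughout.

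Within a library, the log2 difference of *Meox2* over *Meox1* shows whether the paralogs moved by unequal amounts. It was 4.87, 4.37 and 5.33 in wild-type low CHIR (4.86 ± 0.48) and 1.37, 3.19 and 0 in high CHIR. With 1, 1 and 0 reads of *Meox1* in those high-CHIR libraries, and no read of either gene in the last, their values are set largely by the added constant, and the counting intervals of the pooled-read ratios given above (20.5 to 628 for *Meox1*, 146 to 379 for *Meox2*) overlap, so an unequal change was not shown in wild-type NPCs. With GFP sgRNA in the QKO table it was 5.95, 6.65 and 7.33 in low CHIR (6.65 ± 0.69) and 3.77, 3.57 and 5.52 in high CHIR (4.29 ± 1.08), a change of −2.36. The groups did not overlap, and the exact two-sided permutation p was 0.1, the smallest that 3 against 3 libraries allow (Benjamini-Hochberg adjusted over 5 comparisons, 0.25). The pooled reads there gave 4.96 times as much *Meox1* in low as in high CHIR (2.76 to 9.56) and 21.0 times as much *Meox2* (18.9 to 23.5). The controls of the β-catenin table, with 2 libraries a group and no test, differed from each other. With GFP sgRNA the difference was 4.99 and 6.53 in low and 2.63 and 3.94 in high CHIR, without overlap, and without Cre it was 6.61 and 5.32 in low and 6.0 and 5.81 in high CHIR, where *Meox1* was at 1 read per library. No CHIR differed from low CHIR by −0.28 (p = 0.7, exact permutation), QKO from GFP sgRNA by 0.82 in high CHIR (p = 0.4, adjusted 0.5, exact permutation) and by −1.12 in low CHIR (p = 0.2, the smallest possible there, adjusted 0.333, exact permutation).

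**Figure D4:**
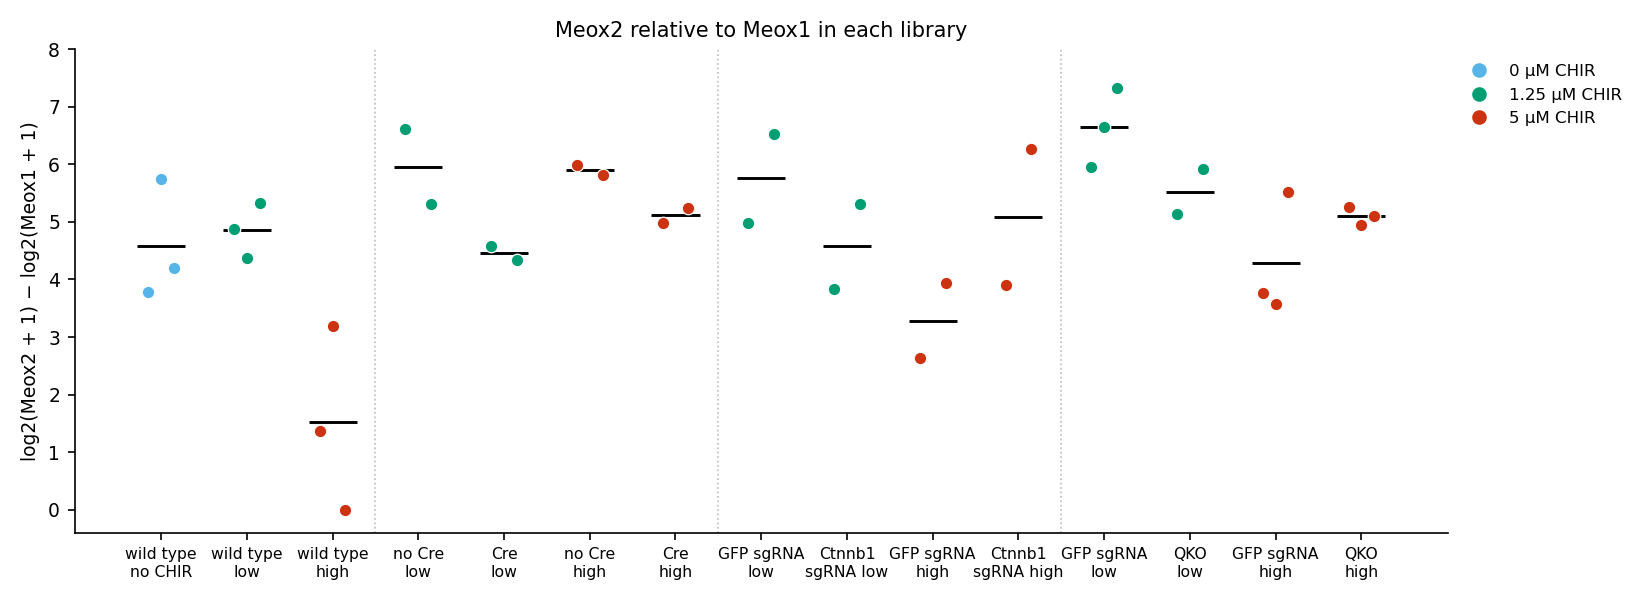
Log2(*Meox2* + 1) minus log2(*Meox1* + 1) in each of the 36 libraries by group, with group means as bars. In high CHIR the wild-type libraries (0 to 3.19) and the GFP sgRNA libraries of the QKO table (3.57 to 5.52) and of the β-catenin table (2.63 and 3.94) lie below their low-CHIR groups, and the Cre-neg libraries (5.81 and 6.0) do not. *Meox1* had at most 1 read in each wild-type and Cre-neg library in high CHIR.

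Other regulators of the NPC state were compared through a list of 13 genes, all of which were tested. From low to high CHIR in wild-type NPCs, 9 fell and none rose (limma, 0 called higher), with a median log2 difference of −3.11 against 0.01 over all genes. Of all 17411 genes tested, 880 were called lower and 928 higher. *Six2*, which holds NPCs in the progenitor state, fell by 5.40 (adjusted p = 3.18e-08), its co-factor *Eya1* fell by 5.28, *Cited1*, a marker of the most naive NPCs, fell by 4.74 and *Wt1* fell by 4.11. *Osr1*, an early marker of the nephrogenic lineage, went from 910 ± 413 normalized counts to 0 in all 3 libraries, at least 813-fold lower (against 3 reads over the group). *Pax2* (0.97, adjusted p = 0.105), *Sall1* (0.05, adjusted p = 0.931), *Hoxd11* (−0.39) and *Gdnf* (−1.02) did not pass. The *Meox2* difference of −8.31 was thus larger in size than that of 12 of these genes.

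In high CHIR after Cre, 5 of the 13 rose and 3 fell, with a median of 0.07 against −0.02 over all genes. Of all 16780 genes tested, 990 were called higher and 462 lower. *Cited1* rose by 5.49, *Osr1* by 4.44, *Tmem100* by 4.15, *Crym* by 3.33 and *Six2* by 1.30 (adjusted p = 0.0294), and *Pax2* fell by 2.55, *Sall1* fell by 1.51 and *Itga8* fell by 1.37. After Cas9, 4 rose and 2 fell (median 0.44), and *Six2* did not pass (0.44, adjusted p = 0.523). Over all genes, 578 were called higher and 276 lower after Cas9. In QKO NPCs, 5 rose and none fell (limma, 0 called lower, median 0.90), with *Tmem100* at 3.04, *Crym* at 2.96, *Osr1* at 2.18, *Cited1* at 1.73 and *Six2* at 1.64. Of the 15878 genes tested there, 326 were called higher and 78 lower. *Meox2* rose in all 3 knockouts, as did *Cited1*, *Osr1*, *Tmem100* and *Crym*. The study names *Meox2*, *Cited1*, *Osr1* and *Tmem100* together among its top genes raised by β-catenin removal in high CHIR. The list was chosen with earlier results of these data known, so this likeness is a description. *Meox1* also passed in all 3, but for QKO its call held in 0 of 6 fits with a library left out. Those fits did not use the replicate block, with which the limma adjusted p over all libraries was 0.0147. For Cas9 the *Meox1* difference ranged from 1.63 to 3.66 with a library left out. It did not pass in a limma fit of the compared groups alone (adjusted p = 0.0507). In low CHIR none of the 13 passed the test with Cre, Ctnnb1 sgRNA or QKO. The 13 genes were tested without the block only.

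**Figure D5:**
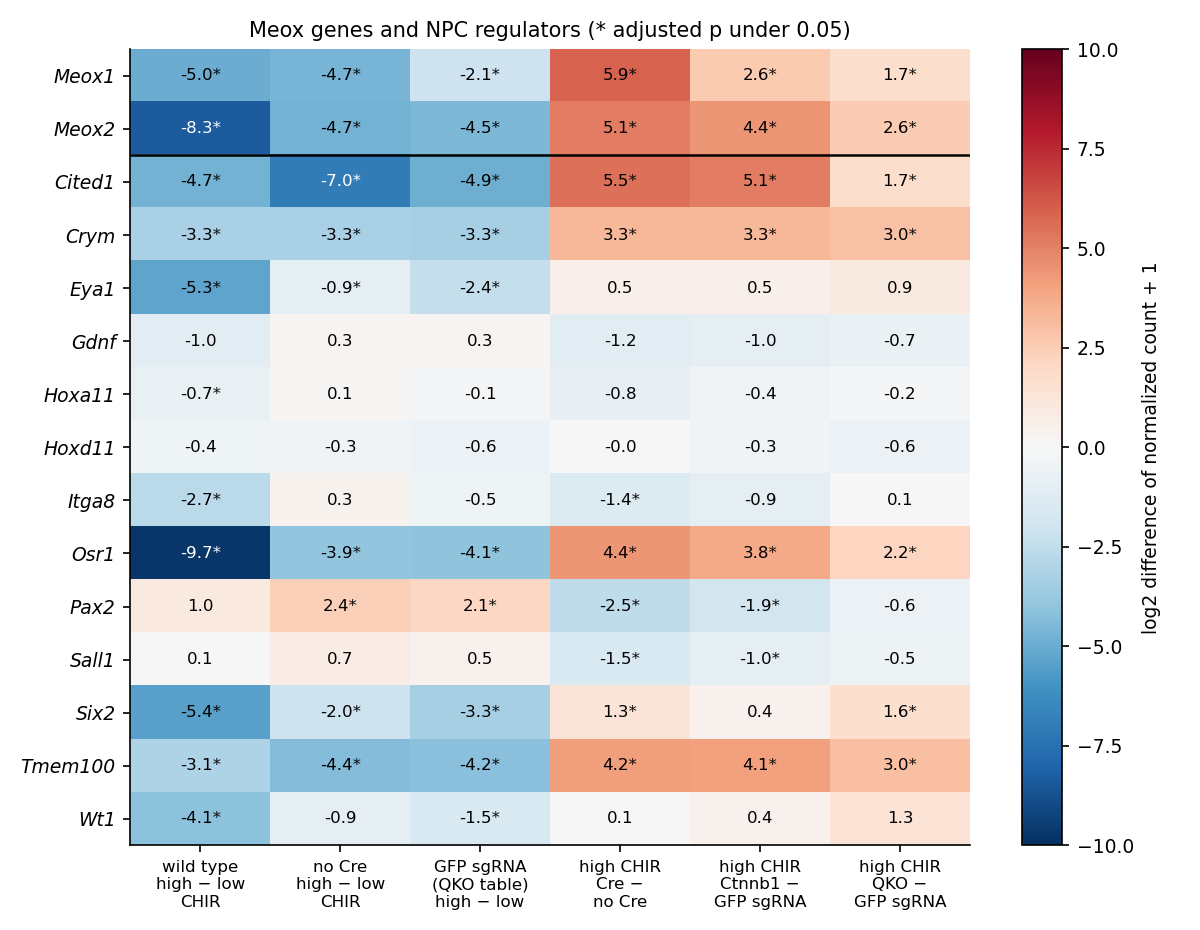
Log2 differences of *Meox1*, *Meox2* and the 13 NPC regulators (rows) in the comparisons named under the columns, on a colour scale from lower to higher. The *Osr1* value in wild-type NPCs is a fitted value against a group with no reads. In high CHIR *Cited1*, *Osr1*, *Tmem100* and *Crym* rise in each knockout, by 1.73 to 5.49.

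Genes of the forming nephron and Wnt feedback genes rose in part with high CHIR and fell in part after β-catenin removal. Of 6 early nephron genes tested, 4 rose in high CHIR in wild-type NPCs (median 2.81), among them *Wnt4* (4.50) and *Jag1* (2.46), which drive and mark epithelial conversion. After Cre in high CHIR 5 of 5 tested fell (median −2.94), after Cas9 4 of 5 fell (median −2.31), and in QKO NPCs 0 of 6 passed in either direction (median −1.21). Of 8 Wnt feedback genes, 5 rose with high CHIR (median 2.80), such as *Axin2* (2.83), a negative regulator of the pathway, while *Lgr5*, a receptor for R-spondins, did not pass (0.47, adjusted p = 0.367). After Cre 6 of 7 tested fell (median −1.70), after Cas9 4 of 7 (median −1.35), and in QKO NPCs 1 of 7 (median −1.22), namely *Tcf7*, itself a target of the sgRNAs. Of all genes tested, 928 of 17411 were called higher in wild-type high CHIR. Those called lower in high CHIR were 462 of 16780 after Cre, 276 of 16780 after Cas9 and 78 of 15878 after QKO. Median log2 differences over all genes were 0.01 in wild-type NPCs, −0.02 after Cre, −0.00018 after Cas9 and 0.00088 after QKO. The genes of these lists were tested in QKO NPCs without the replicate block only.

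Genes tied to Meox factors in other tissues were mostly too low to follow. Of 7 listed, 2 were tested in wild-type NPCs and 1 in the other tables. *Cdkn1a*, which encodes the cell cycle inhibitor p21 and is a known Meox target in vessel cells, was at 1536 ± 167 normalized counts in GFP sgRNA controls and 5407 ± 299 in QKO NPCs in high CHIR (1.82, adjusted p = 0.0136). It did not pass after Cre (0.23, adjusted p = 0.754) or Cas9 (0.13, adjusted p = 0.875), nor from low to high CHIR in wild-type NPCs (1.90, adjusted p = 0.127). In low CHIR it was at 4664 ± 1280 in QKO NPCs and 1940 ± 1300 with GFP sgRNA (1.43, adjusted p = 0.904), where *Meox2* did not rise. *Sost*, a Wnt inhibitor that neighbours *Meox1*, rose by 3.73 from no to high CHIR in wild-type NPCs (adjusted p = 0.0140), from 0 to 2.29 normalized counts to 3.74 to 52.7. From low to high CHIR it differed by 1.08 (adjusted p = 0.519). *Tcf15*, a somite factor, was at 14.3 normalized counts in no CHIR, 2.98 in low CHIR and 1.30 in high CHIR on average, below the minimum for testing.

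The genes most like each *Meox* gene were found by Pearson's r of their group means over 15 groups, each table centred on its own mean, among 14952 genes. Each point is the mean of 2 or 3 libraries, and the members follow the same CHIR and knockout groups as the genes compared, so r is given as a description. For *Meox1* these were *Mbnl3* (r = 0.980), an RNA-binding splicing factor, *Jam2* (0.977), a junctional adhesion molecule, *Lox* (0.972), an enzyme that cross-links collagen, *Calml4* (0.969) and *Car8* (0.968). For *Meox2* they were *Cbr2* (0.984), a carbonyl reductase, *Bmper* (0.981), a BMP-binding protein, *Cftr* (0.979), a chloride channel, *Osr1* (0.979) and *Zfp820* (0.979). The paralogs were not each other's nearest match, with *Meox2* 38th for *Meox1* and *Meox1* 97th for *Meox2* (r = 0.935). *Cbr2* ran from 2440 normalized counts in no CHIR to 490 in low and 11.5 in high CHIR, and from 74.0 in Cre-neg to 1739 in Cre-pos NPCs in high CHIR. *Bmper* ran from 11662 through 5608 to 223, and from 1071 to 13592.

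The 3 nearest protein-coding genes on each side of the members showed no shared movement around *Meox1*. From low to high CHIR in wild-type NPCs, 1 of its 5 tested neighbours rose, *Dusp3*, a phosphatase gene 76.8 kb away (1.46, adjusted p = 0.0132), and none fell (limma, 0 called lower). *Etv4*, an ETS factor gene 92.1 kb away, was at 0.02 (adjusted p = 0.978). Of all 17411 genes tested, 928 rose and 880 fell. Around *Meox2*, 2 of 3 tested neighbours fell, *Sostdc1*, a BMP and Wnt antagonist 790 kb away (−3.53, adjusted p = 0.00678), and *Etv1*, an ETS factor gene 1600 kb away (−3.70, adjusted p = 0.00177). The closest tested neighbour, *Ispd* at 419 kb, did not pass (−0.32, adjusted p = 0.555). *Etv1* also rose in high CHIR after Cre (2.17, adjusted p = 1.41e-06), Cas9 (1.56, adjusted p = 4.33e-05) and QKO (1.90, adjusted p = 0.00224), the comparisons in which *Meox2* rose. *Sostdc1* did not pass in high CHIR after Cre (2.32, adjusted p = 0.294) or Cas9 (1.48, adjusted p = 0.538) and was not tested for QKO. The nearest gene to *Meox2*, *Agmo* at 62.1 kb, and *Dgkb* at 638 kb lay on the same side as *Etv1* and were not tested.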

How the data were processed

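The signal deposited by the authors is a normalized count per gene and library, made with DESeq2 (median of ratios) in 3 tables. Per the labels and methods, SMARTer cDNA was read in pairs of 150 bases, aligned with STAR to GRCm38 and GRCh38 combined, and counted with featureCounts; the strand setting is not given in the sources used here. Reads on genes were recovered from the step between values (100% whole within 0.02). In 3 libraries 1 read was worth about 1 normalized count, and these stayed out of the count tests, leaving 33 of 36. In the β-catenin table they were Cre-pos high CHIR replicate 1 and GFP sgRNA low CHIR replicate 1. In the QKO table it was GFP sgRNA high CHIR replicate 2. edgeR and DESeq2 thus had 1 library of Cre-pos high CHIR and 1 of GFP sgRNA low CHIR in the β-catenin table. The 8 tables of the authors' fold changes and p-values, with 50 columns of per-sample values, were not used.

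log2(normalized count + 1) was fitted with limma 3.58.1 (R 4.3.3, variance trend) over all libraries of a table, for genes averaging at least 10, with Benjamini-Hochberg adjustment. A gene rose or fell at an adjusted p under 0.05 and a log2 difference of at least 0.5. edgeR 4.0.16 and DESeq2 1.42.0 on reads, other constants and filters, and leaving out each library were alternatives. Steps were tested on simulated data. Named genes were the members, 5 most alike genes, 3 neighbours per side and examples from the lists. The members and lists were chosen with earlier results of these data known. In the QKO table same-numbered libraries deviated together in every pair (r 0.214 to 0.637), so the numbers were taken as pairing them. The blocked value stands beside member results it changes. The targeted genes and the other named genes were tested without the block only, so what the pairing would change for them is not known. The main fits and those with a library left out did not use the block. Places are from GENCODE vM21.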

Additional observations from a re-analysis of the deposited data

Results flagged for a closer look

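The dose response of *Meox2* (high minus low CHIR) differed between knockout and control NPCs in 3 tests of the difference itself. It was less negative by 4.49 log2 units after Cre (adjusted p = 0.000128, limma), by 3.84 after Ctnnb1 sgRNA (adjusted p = 0.000325) and by 2.86 in QKO NPCs (adjusted p = 0.0424). The QKO call held in only 2 of 11 fits with a library left out, and edgeR did not make it (adjusted p = 0.114). The fits with a library left out did not use the replicate block, and edgeR ran without GFP sgRNA replicate 2 in high CHIR. Over all genes, a positive difference in response was called for 0.745% (Cre), 0.471% (Ctnnb1 sgRNA) and 0.107% (QKO). In each of the 3 tests both knockout libraries, or all 3, in high CHIR lay above every high-CHIR control. The same held for 24.2% (Cre), 30.1% (Ctnnb1 sgRNA) and 11.1% (QKO) of all genes. The same tests for *Meox1* gave 3.78 (adjusted p = 0.0926), 0.86 (adjusted p = 0.914) and 0.92 (adjusted p = 1.00) and did not pass.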

How the results depend on the processing

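Over the member comparisons, alternatives other than leaving out a library kept direction and side of the threshold in 339 results, gained a call in 6 and lost one in 7; leaving out each library kept 216, lost 23 and turned the sign of 3. For *Meox1*, no minus low CHIR passed with DESeq2 (1.74, adjusted p = 0.0122); with the replicate block in the β-catenin table, Cre in low CHIR (2.12, adjusted p = 0.0254), the difference in response with Cre (3.78, adjusted p = 0.00483) and the GFP sgRNA dose response (−2.21, adjusted p = 0.00460) passed. For *Meox2*, no minus low CHIR passed in a fit of the compared groups alone (1.28, adjusted p = 0.0114) and the Ctnnb1 sgRNA dose response passed with the block (−0.84, adjusted p = 0.0187). *Meox1* after Cas9 in high CHIR was lost in the compared groups alone (2.64, adjusted p = 0.0507) and ranged from 1.63 to 3.66 with a library left out. *Meox1* in QKO in high CHIR was lost with a constant of 5 (1.22, adjusted p = 0.0557), no filter (1.74, adjusted p = 0.0520), edgeR (2.0, adjusted p = 0.123), DESeq2 (2.03, adjusted p = 0.119) and the compared groups alone (1.74, adjusted p = 0.0867), and ranged from 1.57 to 1.83. *Meox2* in QKO ranged from −1.81 to −1.41 for the dose response and from 2.59 to 3.30 for the difference in response, which edgeR did not call (2.48, adjusted p = 0.114). In the QKO table edgeR and DESeq2 ran without GFP sgRNA high CHIR replicate 2. Without Ctnnb1 sgRNA high CHIR replicate 1 the *Meox1* difference in response with Cas9 turned to −0.16 (range −0.16 to 1.88) and Ctnnb1 sgRNA in high CHIR minus GFP sgRNA in low CHIR turned to −0.59 (−0.14 without GFP sgRNA low CHIR replicate 2; range −0.59 to 1.45). The cause was not tested.

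Counts over all genes moved more. limma, edgeR and DESeq2 called 1808, 1778 and 2598 genes for wild-type high against low CHIR, and 865, 757 and 1748 for no against low. For Cas9 in high CHIR they called 854, 725 and 1392. For QKO in high CHIR they called 404, 151 and 466, where edgeR and DESeq2 ran without GFP sgRNA replicate 2. For Cre in high CHIR limma called 1452 genes, and edgeR and DESeq2 had only 1 Cre-pos library. In the β-catenin table same-numbered libraries also deviated together (r 0.116 to 0.518). With 2 pairs per comparison, which give the same r, this is a hint only. The block raised calls in that table to 1718 higher and 921 lower for Cre and 1333 higher and 800 lower for Cas9 in high CHIR. In wild-type NPCs r was lower, at −0.0156 to 0.272, a range that overlaps that of the β-catenin table. The pairing of the QKO table changed no member call. Few reads limit *Meox1* in high-CHIR controls.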
